A study of Mus musculus with 10 samples.

Results

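The 37 genes described here encode the parts of the presynaptic release machinery: synaptic vesicle proteins, SNAREs and the factors that recycle them, calcium sensors, complexins, active zone scaffolds and neurexins. They were chosen by gene symbol from a fixed list of names, with earlier results of these data known. All 37 were found among the 39769 gene symbols of the series, and all 37 passed the filter on low counts that left 15617 genes for testing. RNA was measured in 10 mouse libraries. The AKP group has 3 libraries of medulloblastoma, a tumour of the cerebellum, from AtohI-Cre Kmt2dfl/+ Ptch+/- mice (the labels' spelling of the Atoh1 gene), 2 of them (AKP 1 and 2) at 2 months of age and AKP 3 at 4 months. The NKP group has 3 medulloblastoma libraries from Nestin-Cre Kmt2dfl/+ Ptch+/- mice, all at 4 months. The Ptch group has 4 cerebellum libraries from Ptch+/- mice, the first pair (Ptch 1 and 2) aged 4 months, the other pair (Ptch 3 and 4) aged 2 months. All 3 groups thus carry the Ptch+/- genotype, and the AKP and NKP groups add a Cre and 1 floxed copy of Kmt2d, the gene of a histone H3 lysine 4 methyltransferase. Nestin-Cre is active in neural progenitors of many kinds and Atoh1-Cre mainly in granule neuron precursors. The study's design text describes cerebella that bear tumours, so a library can hold tumour and neighbouring cerebellum. The labels do not state whether each library is a different mouse, so p-values measure only the spread between these libraries.

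Neurotransmitter is released when a vesicle SNARE (a Vamp protein) zips together with the membrane SNAREs Stx1a and Snap25, which pulls vesicle and cell membrane together. Synaptotagmins sense the calcium that triggers fusion, complexins clamp and promote the partly zipped SNAREs, and the active zone scaffolds hold vesicles beside calcium channels. Nsf with its adaptors Napa and Napb takes spent SNAREs apart. In the cerebellum these proteins are used by granule neurons, Purkinje cells and interneurons, whereas dividing granule neuron precursors, the cells from which medulloblastoma of the Sonic hedgehog type arises, have no synapses.

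Several libraries stood apart from their labels. Kmt2d was at 34.3, 41.3 and 43.6 CPM in AKP 1 to 3, 33.2, 46.9 and 58.0 in NKP 1 to 3, against 68.4, 57.3, 56.3 and 52.6 in Ptch 1 to 4. NKP 3 thus lay inside the Ptch range. It did not pass edgeR's test with AKP set against Ptch (log2 fold change of -0.56 with SE 0.166 and adjusted p = 0.065) or with NKP set against Ptch (log2 fold change of -0.34 with SE 0.164 and adjusted p = 0.307). Reads of the other exons still count where a floxed exon is lost. In 4 of 10 libraries the sex label did not match the summed level of 4 Y-linked genes (AKP 3, NKP 3, Ptch 1 and Ptch 3). Xist gave a mixed signal. NKP 2, labelled male, had 74.78 CPM of Xist beside 68.43 CPM of Y-linked RNA. Xist was at 15.04, 11.94, 10.23 and 5.38 CPM in AKP 1, NKP 1, Ptch 3 and AKP 3, beside 68.39 to 99.15 CPM of Y-linked RNA. It was at 0.4329 to 0.4437 CPM in AKP 2, NKP 3 and Ptch 4. The cause of the mixed signal was not tested. The proliferation marker Mki67 was at 0.575, 49.1 and 38.8 CPM in AKP 1 to 3, 0.654, 0.719 and 11.8 in NKP 1 to 3, against 84.1, 80.4, 28.8 and 27.3 in Ptch 1 to 4. The precursor transcription factor gene Atoh1 was at 0, 5.77 and 5.45 CPM in AKP 1 to 3, 0, 0.221 and 3.67 in NKP 1 to 3, against 14.8, 16.4, 6.92 and 5.71 in Ptch 1 to 4. Both markers were thus lowest in 3 libraries labelled medulloblastoma (AKP 1, NKP 1 and NKP 2) and highest in 2 labelled cerebellum (Ptch 1 and Ptch 2). Over all genes, likeness also cut across the groups, by the chi-square per degree of freedom between the counts of a pair of libraries. AKP 1 was at 3.44 from NKP 1, against 37 from AKP 2 and 18.5 from AKP 3. NKP 3 was at 3.81 from Ptch 4, against 16.6 from NKP 1 and 15.1 from NKP 2. Directions below are by label.

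Levels are given as CPM (read counts scaled to library size by TMM), and tests are edgeR's quasi-likelihood F test with Benjamini-Hochberg adjustment over all 15617 genes. Summed over the 37 genes, the presynaptic level was 12509.8, 10629.9 and 10895 CPM in AKP 1 to 3, 12917, 11716 and 12155 in NKP 1 to 3, against 10294, 10316, 11536 and 11680.3 in Ptch 1 to 4. This put the highest library at 1.25 times the lowest. Over the same libraries a list of 10 precursor and proliferation genes ran from 15.5 to 466 CPM, a ratio of 30.1. A list of 10 mature granule neuron genes had 4871, 2780.1 and 3237 CPM in AKP 1 to 3, 4909, 4279 and 4365 in NKP 1 to 3, against 3567, 3511, 4287 and 4312 in Ptch 1 to 4. The presynaptic sum was lowest in Ptch 1, Ptch 2, AKP 2 and AKP 3, which had the highest proliferation sums and the lowest granule neuron sums. Hindbrain neuron markers, which include serotonergic and cholinergic genes from outside the cerebellar cortex, summed to 6.74, 89.7 and 74.4 CPM in AKP 1 to 3, 4.66, 5.53 and 16.2 in NKP 1 to 3, against 28.7, 29.7, 27.4 and 24.8 in Ptch 1 to 4. AKP 2 and AKP 3 were highest and AKP 1 was close to NKP 1 and NKP 2. Of these 10 hindbrain genes 8 passed the low-count filter. In the precursor list, Atoh1 and Aurkb were at 0 in at least 1 library. In bulk tissue, fewer neurons and less RNA per neuron cannot be told apart, and the part of these markers in the results below was not tested.

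**Figure D1:**
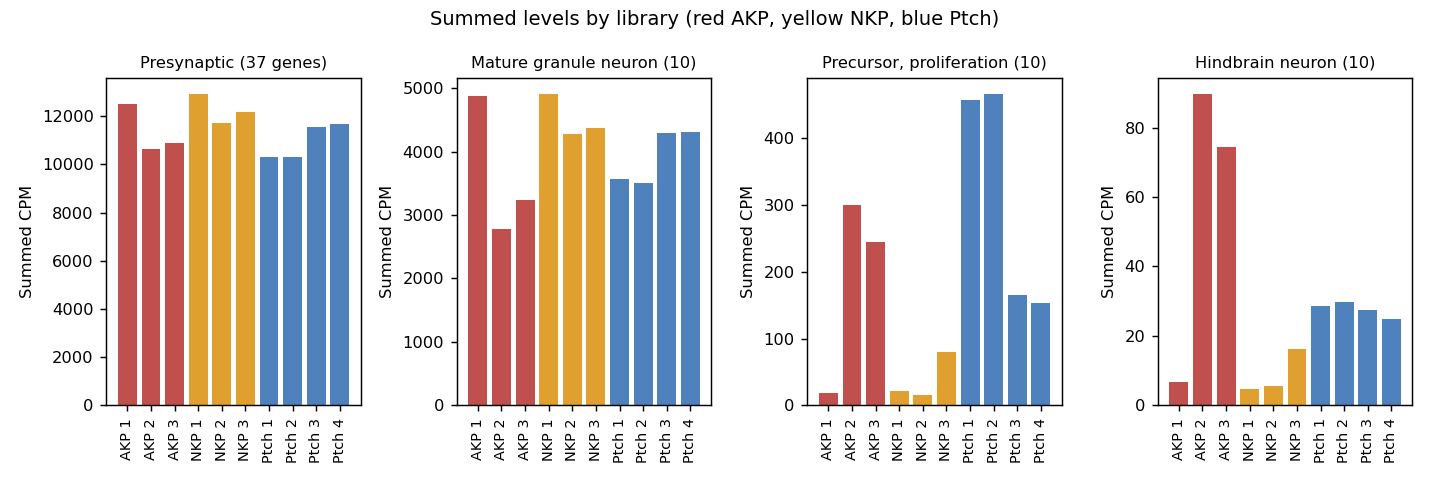
Summed CPM by library (bars) for the 37 presynaptic genes, 10 mature granule neuron genes, 10 precursor and proliferation genes and 10 hindbrain neuron genes, each panel with its own axis from 0. The presynaptic sums stay between 10294 and 12917 CPM, while the precursor and proliferation sums run from 15.5 to 466 CPM.

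The genes differed far more from each other than between libraries. Per kilobase of the longest annotated transcript, and as a mean over 10 libraries, the vesicle membrane protein gene Syp was highest at 478 CPM per kb, followed by Snap25 at 388, the vesicle GTPase gene Rab3a at 387, Vamp2 at 359.7 and Cplx1 at 313. The lowest were Sv2c at 0.371, Cplx3 at 0.489 and Unc13b at 0.644 CPM per kb. Within families, Vamp2 exceeded Vamp1 by 4.90 to 7.82 times per kb in all 10 libraries and Napa exceeded Napb by 3.21 to 7.76 times. Sv2a exceeded Sv2b by 1.97 to 2.54 times per kb and Cplx1 exceeded Cplx2 by 1.56 to 2.94 times. These ratios depend on the transcript length used. In CPM, without division by length, Cplx2 was at 0.767 to 1.44 times Cplx1, and Vamp1 at 0.331 to 0.528 times Vamp2. Neighbours in level that changed order between libraries were Syn2 and Syn1 (Syn2 higher in 8 of 10 libraries), Rims2 and Rims1 (Rims2 higher in 7) and Unc13a and Unc13c (Unc13a higher in 5). For a single gene, the highest library was a median of 1.51 times the lowest, as against 1.67 over all tested genes. Among genes with a mean of at least 10 CPM it was 1.48 for 33 presynaptic genes and 1.5 for 10284 tested genes. Syt11 varied least, at 1.15 times, and Stx1a most, at 5.53 times.

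**Figure D2:**
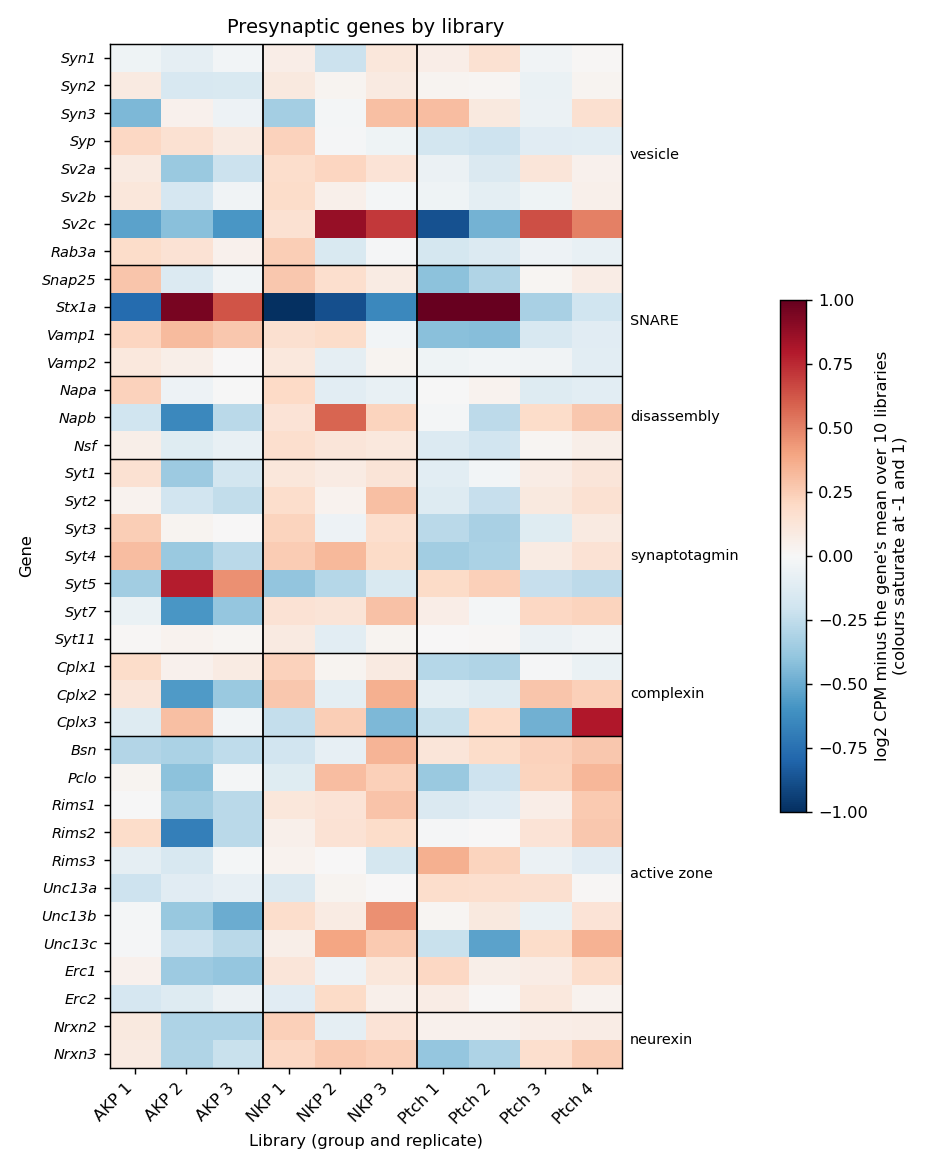
Heat map of the 37 genes (rows, by role) in the 10 libraries (columns, by group), coloured by log2 CPM minus the gene's mean over the libraries. Stx1a is red in AKP 2, AKP 3, Ptch 1 and Ptch 2, and most synaptotagmin, active zone and neurexin rows are blue in AKP 2 and AKP 3.

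The AKP against Ptch comparison asks how tumours with Atoh1-Cre and 1 floxed Kmt2d copy differ from Ptch+/- cerebellum. In it, 1 of 37 genes rose, as did 3.38% of all tested genes, and 2 of 37 fell, as did 2.30% of all tested genes. In either direction it was 8.11% of the presynaptic genes and 5.68% of all. The gene that rose was Vamp1, and those that fell were Bsn and Syt7. The median log2 fold change of the 37 was -0.14, with 13 above and 24 below 0, as against -0.02 over all tested genes. Corrected for transcript length and GC content, that median was 0.03, with 20 above and 17 below 0. With AKP 1 as the only AKP library it was 0.04, with 22 above and 15 below 0. With all 10 libraries and no such correction, an unadjusted p under 0.05 was reached by 9 of 37 genes (24.3%), as against 25.1% of all tested genes. DESeq2 called 7 of 37 (18.9%), as against 12.4% of all. These were Vamp1, Syp and Cplx1, which rose, and Bsn, Syt7, Erc1 and Unc13a, which fell. Whether a gene passed is given below by edgeR.

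Vamp1 encodes synaptobrevin 1, the vesicle SNARE that in mice predominates in spinal cord and brainstem synapses (chromosome 6, 125215581 to 125222306, GRCm38.p6). Its level was 401, 432 and 419 CPM in AKP 1 to 3, 388, 393 and 339 in NKP 1 to 3, against 259, 258, 311 and 321 in Ptch 1 to 4. Every AKP library was above every Ptch and every NKP library. Vamp1 averaged 417 ± 15.4 CPM in AKP and 287 ± 33.5 CPM in Ptch (SD, n = 3 and 4), for a log2 fold change of 0.54 with SE 0.102 and adjusted p = 0.0211 in edgeR. Its paralogue Vamp2, the main vesicle SNARE of the forebrain, was at 853, 827 and 793 CPM in AKP 1 to 3, 853, 746 and 806 in NKP 1 to 3, against 768, 779, 771 and 735 in Ptch 1 to 4. AKP 1 and NKP 1 were highest. The ratio of Vamp1 to Vamp2 in CPM, which no scaling of libraries can move, was 0.47, 0.522 and 0.528 for AKP 1 to 3, then 0.455, 0.527 and 0.421 for NKP 1 to 3, against 0.337, 0.331, 0.403 and 0.437 for Ptch 1 to 4. That ratio was higher in all 3 AKP libraries than in all 4 Ptch libraries.

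Bsn encodes bassoon, a very large scaffold of the active zone (chromosome 9, 108096022 to 108190419). Its level was 121, 119 and 124 CPM in AKP 1 to 3, 129.5, 140.1 and 187 in NKP 1 to 3, against 162, 169, 174 and 178 in Ptch 1 to 4. The AKP libraries lay below all NKP and all Ptch libraries and within a few CPM of each other, while NKP 1 and NKP 2 lay below the Ptch libraries and NKP 3 above them. Bsn averaged 121 ± 2.41 CPM in AKP and 171 ± 7.25 CPM in Ptch (SD, n = 3 and 4), for a log2 fold change of -0.49 with SE 0.113 and adjusted p = 0.0317 in edgeR. The ratio of Bsn to its relative Pclo in CPM was 1.15, 1.55 and 1.23 for AKP 1 to 3. It was 1.38, 1.1 and 1.55 for NKP 1 to 3, against 2.03, 1.9, 1.45 and 1.38 for Ptch 1 to 4. In that ratio AKP and Ptch overlapped.

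Syt7 encodes a slow, high-affinity calcium sensor used for asynchronous release and facilitation (chromosome 19, 10388802 to 10453181). Its level was 191, 133 and 153 CPM in AKP 1 to 3, 222, 219 and 245 in NKP 1 to 3, against 209, 197, 231 and 233 in Ptch 1 to 4. AKP 1 was the highest of its group and close to Ptch 2, and AKP 2 and AKP 3 were well below every other library. The ratio of Syt7 to Syt1 in CPM was 0.516, 0.515 and 0.524 for AKP 1 to 3. It was 0.614, 0.619 and 0.67 for NKP 1 to 3, against 0.676, 0.602, 0.659 and 0.642 for Ptch 1 to 4, so AKP lay below Ptch. Syt7 averaged 159 ± 29.4 CPM in AKP and 218 ± 17.5 CPM in Ptch (SD, n = 3 and 4), for a log2 fold change of -0.45 with SE 0.118 and adjusted p = 0.0436 in edgeR. Of its exon bases, 5.13% overlap a long noncoding RNA gene on the other strand, and the libraries do not mark strand.

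**Figure D3:**
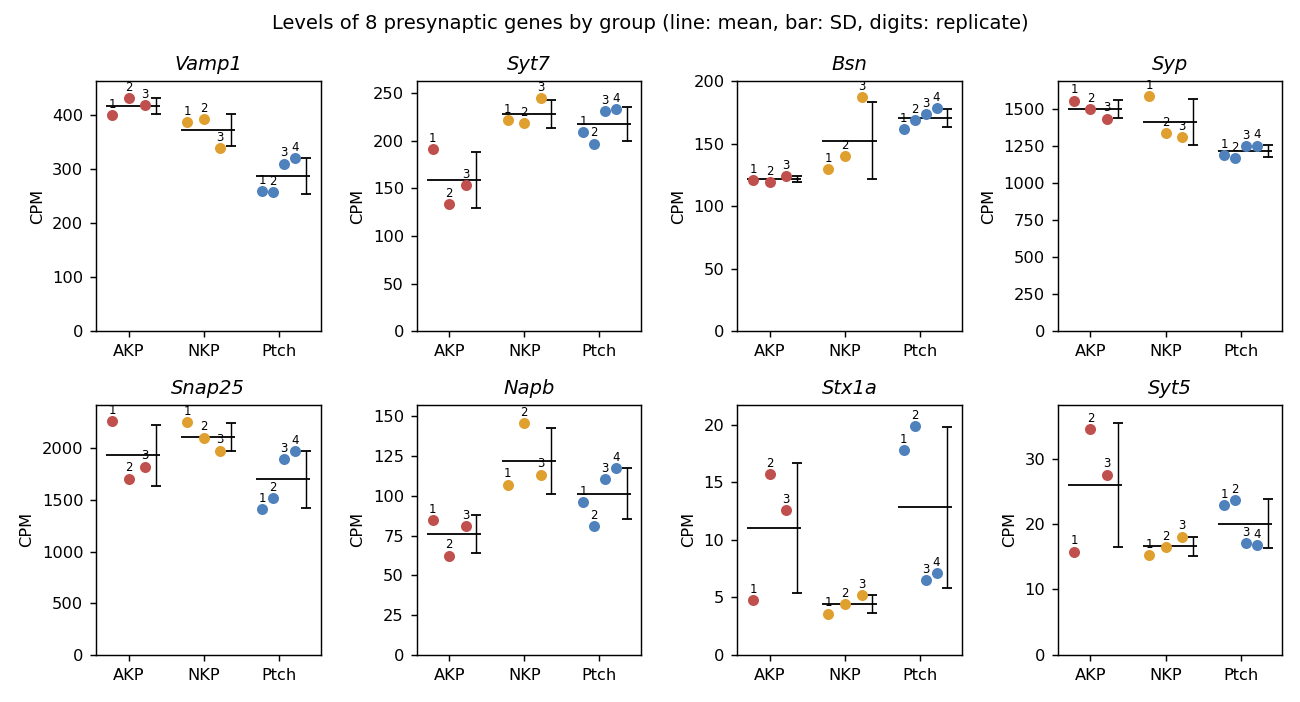
CPM of 8 presynaptic genes in each library (points, with replicate numbers) by group, with group means (lines) and SD (bars). For Vamp1 the AKP points (401 to 432 CPM) lie above all Ptch points (258 to 321 CPM), for Bsn they lie below them (119 to 124 against 162 to 178 CPM), and for Stx1a and Syt5 AKP 1 lies apart from AKP 2 and AKP 3.

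With single libraries left out, Vamp1 and Bsn lost their calls more through the adjusted p than through the fold change. Vamp1 passed in 15 of 23 alternatives and missed without AKP 2, AKP 3, Ptch 1 or Ptch 2, at log2 fold changes of 0.52, 0.54, 0.50 and 0.50 (adjusted p = 0.115, 0.0636, 0.0678 and 0.0635). Bsn passed in 11 of 23 and missed without AKP 2, AKP 3 or any 1 of Ptch 1 to 4, at -0.48, -0.51, -0.51, -0.49, -0.48 and -0.46 (adjusted p = 0.133, 0.0903, 0.0757, 0.0758, 0.0584 and 0.0733). Syt7 passed in 7 of 23 and missed without AKP 2, AKP 3, NKP 2, NKP 3 or any 1 of Ptch 1 to 4, at -0.49 to -0.34 (adjusted p from 0.0532 to 0.179). With AKP 1 as the only AKP library, Vamp1 was at 0.48, Bsn at -0.50 and Syt7 at -0.19 (adjusted p = 0.218, 0.24 and 0.501). The whole table gave 1, 0, 1 and 1 calls without AKP 2, AKP 3, Ptch 1 and Ptch 2. With transcript length and GC content corrected for, Bsn was at -0.07 (adjusted p = 0.626), Syt7 at -0.22 (0.299) and Vamp1 at 0.70 (0.0255), and 14 of 14930 genes of the table passed.

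The promoters of Vamp1 and Bsn are shown because these genes passed in opposite directions. The sequences are from RefSeq (GRCm38.p6), 5′ to 3′ on the gene's own strand and upstream of its annotated start. The first is chr6:125215331-125215580 on the plus strand and the second chr9:108190420-108190633 on the minus strand. Capitals mark matches on either strand to the CCAAT box (ATTGG) and the GC box (GGGCGG) in Vamp1, and to the NRF1 motif, a palindrome, in Bsn. No marked matches overlap.
Vamp1: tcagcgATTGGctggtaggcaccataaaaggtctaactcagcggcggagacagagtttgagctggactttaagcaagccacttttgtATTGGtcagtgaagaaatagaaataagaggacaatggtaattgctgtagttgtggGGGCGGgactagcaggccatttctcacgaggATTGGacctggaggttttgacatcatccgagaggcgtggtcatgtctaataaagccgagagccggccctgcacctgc
Bsn: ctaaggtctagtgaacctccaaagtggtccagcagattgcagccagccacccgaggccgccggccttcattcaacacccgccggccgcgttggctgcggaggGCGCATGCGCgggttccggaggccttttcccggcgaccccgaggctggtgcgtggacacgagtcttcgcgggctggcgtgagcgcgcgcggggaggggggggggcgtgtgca
The Vamp1 window held 3 CCAAT boxes and 1 GC box, motifs present in 33.8% and 32.7% of all 32851 RefSeq promoter windows of the same length. The Bsn window held 1 NRF1 motif, present in 0.536% of windows of its length, and 25 CpG dinucleotides at 70.6% GC, as against 9 CpG at 50.4% GC in the Vamp1 window. Neither window held the cAMP response element TGACGTCA. These matches are a description of the letters and no measure of binding.

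The other SNARE and recycling genes did not pass in AKP against Ptch. Snap25, a membrane SNARE anchored by lipid, was at 2263, 1706 and 1823 CPM in AKP 1 to 3, 2252, 2103 and 1977 in NKP 1 to 3, against 1411, 1516, 1893 and 1972 in Ptch 1 to 4. Its level was highest in AKP 1 and NKP 1 and lowest in Ptch 1 and Ptch 2 (log2 fold change of 0.19 with SE 0.141 and adjusted p = 0.445). Stx1a, the syntaxin of the same complex, was at 4.77, 15.7 and 12.6 CPM in AKP 1 to 3, 3.60, 4.42 and 5.20 in NKP 1 to 3, against 17.8, 19.9, 6.51 and 7.10 in Ptch 1 to 4. It was high in Ptch 1, Ptch 2, AKP 2 and AKP 3 and low in the other 6 libraries, and the 4 high ones are those with the highest Mki67. Of the recycling genes, Napb, a neural form of the Nsf adaptor, was at 84.7, 62.4 and 80.8 CPM in AKP 1 to 3, 107, 146 and 113 in NKP 1 to 3, against 95.9, 81.2, 110.5 and 117 in Ptch 1 to 4 (log2 fold change of -0.42 with SE 0.152 and adjusted p = 0.114). AKP 2 was lowest and NKP 2 highest, and AKP overlapped with Ptch 2. Its widely expressed relative Napa ran from 262 to 335 CPM over the 10 libraries, and the ATPase gene Nsf from 369 to 472 CPM. The ratio of Napb to Napa in CPM was 0.253, 0.226 and 0.283 for AKP 1 to 3. It was 0.335, 0.277, 0.421 and 0.442 for Ptch 1 to 4, so AKP and Ptch overlapped.

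Among vesicle proteins in AKP against Ptch, 3 of 8 were above 0 and 5 below, with a median of -0.09. Syp, encoding synaptophysin, was at 1557, 1498 and 1435 CPM in AKP 1 to 3, 1587, 1339 and 1309.7 in NKP 1 to 3, against 1189.8, 1169, 1251 and 1253 in Ptch 1 to 4. All AKP libraries were above all Ptch libraries, but the gene did not pass (log2 fold change of 0.30 with SE 0.099 and adjusted p = 0.0838), and 16.8% of its exon bases overlap an antisense RNA gene. Rab3a, which encodes a GTPase of vesicle docking, likewise did not overlap, with 679, 661 and 617 CPM in AKP 1 to 3 against 529, 544, 579 and 568 in Ptch 1 to 4. The synapsin genes Syn1, Syn2 and Syn3, whose products tether vesicles to each other, ran from 188 to 243 CPM, 243 to 289 CPM and 12.2 to 20.5 CPM over the 10 libraries. Of the vesicle transporter-like genes, Sv2a ran from 270.3 to 406 CPM and Sv2b from 175 to 224 CPM. Sv2c, found in few neuron types, was at 2.14, 2.31 and 2.06 CPM in AKP 1 to 3, 3.43, 5.64 and 5.04 in NKP 1 to 3, against 1.69, 2.22, 4.84 and 4.37 in Ptch 1 to 4. All of its AKP libraries lay below all NKP libraries.

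The calcium sensors differed in direction. Syt1 and Syt2, the fast sensors of synchronous release, were at 259 to 371 and 291 to 352 CPM in AKP and 309.8 to 363 and 293 to 383 CPM in Ptch, and neither passed. Syt3 had the lowest p of the sensors that did not pass (log2 fold change of 0.24 with SE 0.115 and adjusted p = 0.211), with 61.2, 52.6 and 51.7 CPM in AKP 1 to 3 and 42.7, 41.3, 47.5 and 55.0 CPM in Ptch 1 to 4. Syt5 was at 15.8, 34.5 and 27.6 CPM in AKP 1 to 3, 15.2, 16.5 and 18.1 in NKP 1 to 3, against 22.9, 23.7, 17.1 and 16.7 in Ptch 1 to 4. It was highest in AKP 2 and AKP 3 and next in Ptch 1 and Ptch 2, much as Stx1a. Syt4, an atypical synaptotagmin that binds calcium weakly, was at 276, 172 and 185 CPM in AKP 1 to 3, 266, 279 and 254 in NKP 1 to 3, against 175, 179, 236 and 247 in Ptch 1 to 4. It was lowest in AKP 2, AKP 3, Ptch 1 and Ptch 2, the reverse of Stx1a. Syt11, which does not bind calcium, was at 511 to 587 CPM over the 10 libraries.

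Complexin genes split by member. Cplx1, the complexin of many cerebellar and hindbrain neurons, was at 775, 703 and 719 CPM in AKP 1 to 3, 797, 693 and 725 in NKP 1 to 3, against 559.9, 553, 676 and 651 in Ptch 1 to 4. Its AKP libraries all lay above its Ptch libraries without passing (log2 fold change of 0.26 with SE 0.102 and adjusted p = 0.128). Cplx2 was at 868, 539 and 618 CPM in AKP 1 to 3, 960.0, 746 and 1019 in NKP 1 to 3, against 745, 729.8, 968 and 941 in Ptch 1 to 4. Its lowest libraries were AKP 2 and AKP 3. The ratio of Cplx2 to Cplx1 in CPM was 1.12, 0.767 and 0.859 for AKP 1 to 3, then 1.2, 1.08 and 1.4 for NKP 1 to 3, against 1.33, 1.32, 1.43 and 1.44 for Ptch 1 to 4, so each AKP library was below each Ptch library. Cplx3, known from retina and some cortical neurons, was at 0.967 to 2.35 CPM over the libraries, near the low end of what was tested.

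All 10 active zone genes had a log2 fold change below 0 in AKP against Ptch, from -0.49 to -0.14 with a median of -0.24. By edgeR 1 of 10, Bsn, passed, and DESeq2 called 3 (Bsn, Erc1 and Unc13a). Erc1, a scaffold that binds RIM proteins, was at 66.5, 50.1 and 49.4 CPM in AKP 1 to 3 against 74.6, 67.3, 67.8 and 72.8 in Ptch 1 to 4 (log2 fold change of -0.35 with SE 0.109 and adjusted p = 0.0698). Unc13a, the main vesicle priming factor, was at 80.1, 85.7 and 87.6 CPM in AKP against 105, 104, 103 and 93.1 CPM in Ptch. For these genes and for the Erc1 relative Erc2 (16.8 to 18.1 CPM in AKP, 19.0 to 20.2 CPM in Ptch), every AKP library lay below every Ptch library. Unc13c, a granule neuron form of the priming factor, was at 75.3, 65.8 and 63.0 CPM in AKP 1 to 3 and 65.0, 52.4, 86.3 and 96.5 CPM in Ptch 1 to 4, and Unc13b ran from 6.63 to 12.8 CPM over all libraries. The RIM genes, whose products tie vesicles to calcium channels, overlapped between groups. Rims1 was at 83.4 to 106 CPM in AKP and 96.2 to 127 CPM in Ptch, Rims2 at 50.9 to 93.2 and 81.3 to 98.6 CPM, and Rims3 at 177 to 196 and 183 to 253 CPM. Pclo, encoding the bassoon relative piccolo, was at 105, 77.3 and 101 CPM in AKP 1 to 3, 94.0, 127 and 121 in NKP 1 to 3, against 79.4, 88.9, 119.7 and 129 in Ptch 1 to 4. The groups overlapped. Corrected for transcript length and GC content, the median of the 10 active zone genes was -0.01, with 4 above and 6 below 0; with AKP 1 as the only AKP library it was -0.08, with 3 above and 7 below 0.

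Neurexins, the presynaptic adhesion proteins that bind neuroligins and cerebellins, did not pass either. Nrxn2 was at 345, 261 and 261 CPM in AKP 1 to 3 and 332, 333, 337 and 341 CPM in Ptch 1 to 4 (log2 fold change of -0.22 with SE 0.113 and adjusted p = 0.255), with AKP 1 above the Ptch libraries and AKP 2 and AKP 3 below them. Nrxn3 was at 125, 95.2 and 101 CPM in AKP 1 to 3 and 89.9, 95.1, 132 and 139 CPM in Ptch 1 to 4.

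Counted by overlap, 5 of 37 genes (Vamp1, Vamp2, Syp, Rab3a and Cplx1; 13.5%) were higher in every AKP than in every Ptch library, as were 12.9% of all tested genes. Another 5 of 37 (Bsn, Syt7, Unc13a, Erc1 and Erc2; 13.5%) were lower in every AKP library, as were 12% of all tested genes. Both shares are close to those of all tested genes. Within AKP, the level of AKP 1 was above both AKP 2 and AKP 3 in 25 of 37 genes and below both in 8. AKP 2 was below every Ptch library in 19 genes and AKP 3 in 15, as against 9 in AKP 1. AKP 1 was above every Ptch library in 14 genes, as against 7 in AKP 2 and 7 in AKP 3.

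The NKP libraries, labelled medulloblastoma with Nestin-Cre, were set against the same 4 Ptch libraries, so both comparisons share their controls. By edgeR 0 of 37 genes passed, as did 0 of all tested genes (0%), and the smallest adjusted p of the 37 was 0.218. An unadjusted p under 0.05 was reached by 6 of 37 (16.2%; 5 higher and 1 lower), as against 17.0% of all tested genes, and DESeq2 called 1 of 37, Vamp1 (2.70%; adjusted p = 0.0265), as against 2.60% of all. The median log2 fold change was 0.10, with 27 above and 10 below 0, as against 0.01 over all tested genes. Every NKP library was above every Ptch library for 7 genes (Vamp1, Snap25, Syp, Sv2a, Cplx1, Nsf and Syt4; 18.9%), as for 6.96% of all tested genes, and below for 1 gene, Stx1a (2.70%), as for 8.95%. Some margins were narrow. The lowest NKP and highest Ptch libraries were at 1977.07 and 1972.5 CPM for Snap25 and at 383.7 and 379.1 CPM for Sv2a.

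Per gene in NKP against Ptch, Vamp1 averaged 374 ± 29.7 CPM in NKP and 287 ± 33.5 CPM in Ptch (SD, n = 3 and 4), for a log2 fold change of 0.38 with SE 0.102 and adjusted p = 0.218 in edgeR. Cplx1 averaged 739 ± 53.4 CPM and 610.2 ± 62.7 CPM (log2 fold change of 0.28 with SE 0.102 and adjusted p = 0.227) and Syp 1412 ± 153 CPM and 1216 ± 43.0 CPM (log2 fold change of 0.22 with SE 0.099 and adjusted p = 0.291) in the same groups. The Ptch values given above show that Ptch 1 and Ptch 2 were the lowest Ptch libraries for Vamp1, Snap25, Cplx1, Syp, Syt3 and Syt4, and Ptch 3 and Ptch 4 were closer to NKP. Of the other role groups, the lowest p was that of Nsf (log2 fold change of 0.19 with SE 0.091 and adjusted p = 0.299), Syt3 (log2 fold change of 0.27 with SE 0.115 and adjusted p = 0.266), Unc13a (log2 fold change of -0.17 with SE 0.082 and adjusted p = 0.319) and Nrxn3 (log2 fold change of 0.28 with SE 0.151 and adjusted p = 0.356). Stx1a was at 3.60 to 5.20 CPM in NKP and 6.51 to 19.9 CPM in Ptch. Its log2 fold change of -1.53 (SE 0.52 and adjusted p = 0.222 in edgeR) did not pass. It is given here because of its size, after its values were seen. Ptch 3 and Ptch 4 were far closer to the NKP libraries than Ptch 1 and Ptch 2 were. Active zone genes split evenly, with 5 of 10 above and 5 below 0 and a median of 0.01. With age as a covariate edgeR called 5 of 37 (Vamp1, Nrxn3, Syt4 and Unc13c higher, Stx1a lower) and 933 of 15617 tested genes. The Ptch libraries at 4 months are Ptch 1 and Ptch 2 alone. These are also the only libraries with almost no Y-linked RNA (0.385 and 0.465 CPM summed over 4 genes). Age, sex by RNA and whatever else sets those 2 apart from the others therefore cannot be told apart.

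The AKP against NKP comparison sets both Cre drivers side by side. By edgeR 0 of 37 genes passed, as did 0.00640% of all tested genes (1 of 15617), with a smallest adjusted p of 0.228 among the 37, and DESeq2 called 2 (5.41%), Napb and Syt7, both lower in AKP, as against 1.47% of all. An unadjusted p under 0.05 was reached by 14 of 37 genes (37.8%; 2 higher and 12 lower in AKP), as against 16.9% of all tested genes. The median log2 fold change was -0.17, with 9 above and 28 below 0, as against -0.01 over all tested genes. Corrected for length and GC content, that median was -0.06, with 11 above and 26 below 0. With AKP 1 as the only AKP library it was -0.035, with 15 above and 22 below 0. Every AKP library was below every NKP library for 10 genes (27.0%), as for 9.52% of all tested genes, and above for Vamp1 alone (2.70%), as for 6.69%. The 10 were Sv2a, Sv2c, Napb, Nsf, Syt7, Bsn, Rims1, Unc13b, Unc13c and Nrxn3, from all role groups except SNAREs and complexins.

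The lowest p in each role group of AKP against NKP belonged to the following genes. Napb averaged 75.9 ± 11.9 CPM in AKP and 122 ± 20.7 CPM in NKP (SD, n = 3 each; log2 fold change of -0.69 with SE 0.162 and adjusted p = 0.228), and Syt7 159 ± 29.4 CPM and 228 ± 14.3 CPM (log2 fold change of -0.52 with SE 0.125 and adjusted p = 0.228). For Syt7, AKP 1 lay closer to the NKP libraries than AKP 2 and AKP 3 did. Rims1 (log2 fold change of -0.38 with SE 0.122 and adjusted p = 0.228), Cplx2 (log2 fold change of -0.43 with SE 0.185 and adjusted p = 0.275), Nrxn3 (log2 fold change of -0.37 with SE 0.162 and adjusted p = 0.277) and Sv2c (log2 fold change of -1.12 with SE 0.376 and adjusted p = 0.228) were lower in AKP, and Stx1a (log2 fold change of 1.32 with SE 0.547 and adjusted p = 0.276) was higher, all without passing. Stx1a was at 4.77, 15.7 and 12.6 CPM in AKP 1 to 3 and 3.60, 4.42 and 5.20 CPM in NKP 1 to 3, so AKP 1 lay inside the NKP range. All 10 active zone genes were below 0 (median -0.31, or -0.08 with 7 of 10 below 0 after correction for length and GC content). Without AKP 1, edgeR called 12 of 37 genes (1 higher, Syt5, and 11 lower) and 1364 of 16061 tested genes, and with AKP 1 as the only AKP library it called 0.

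**Figure D4:**
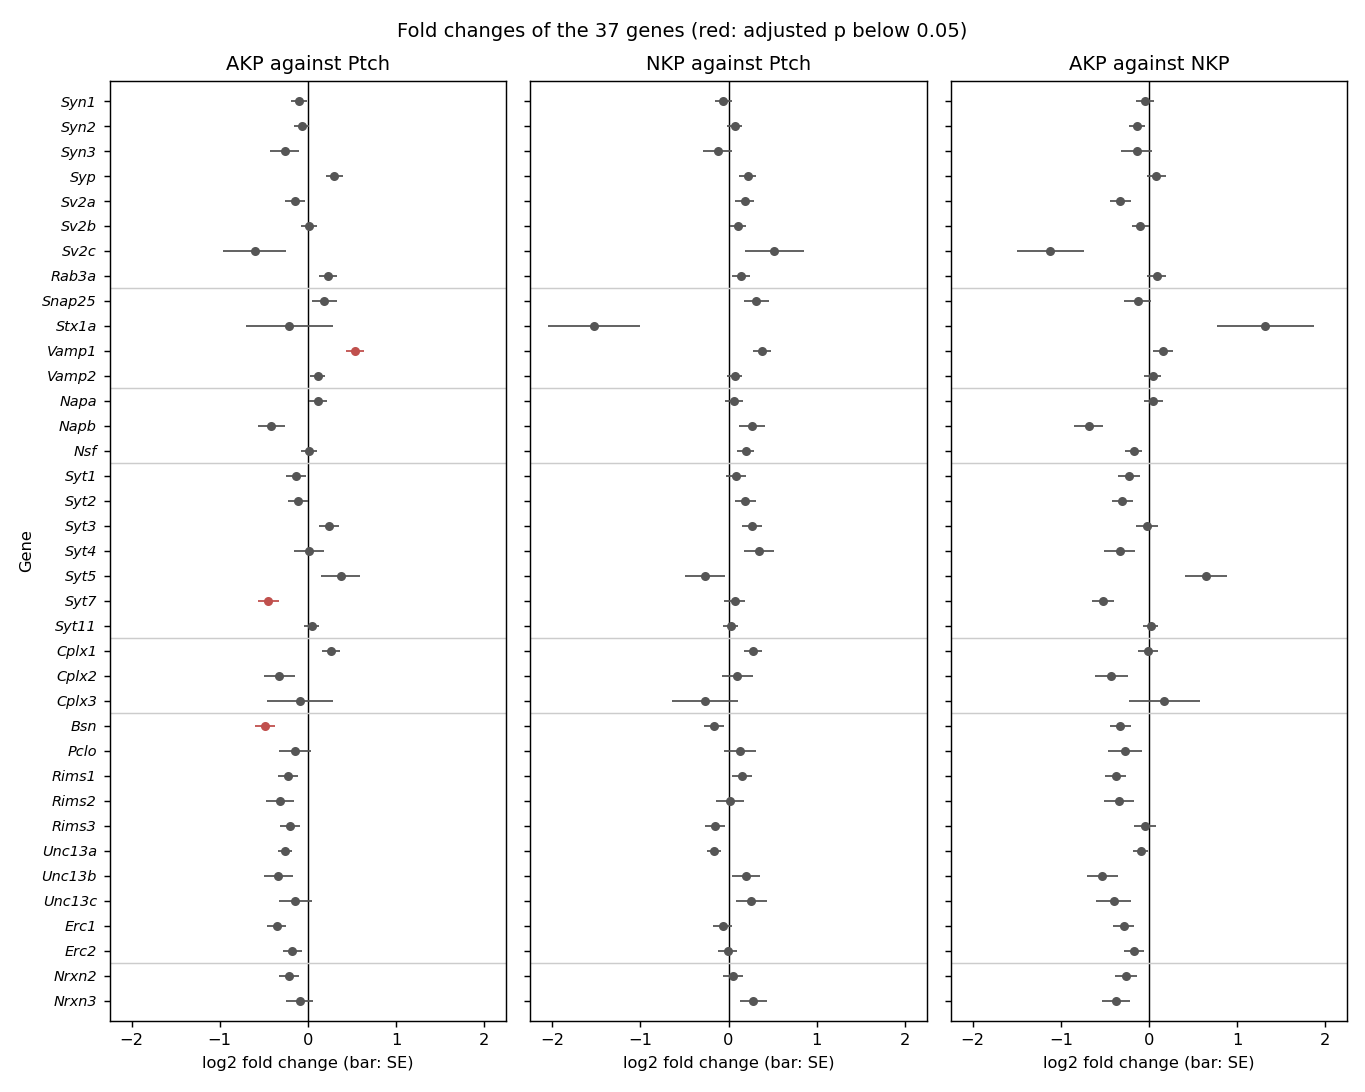
Log2 fold changes of the 37 genes (points) with SE (bars) in the 3 comparisons, ordered by role, with genes past an adjusted p of 0.05 in red. Vamp1, Syt7 and Bsn are red in AKP against Ptch and no gene is red elsewhere, and all 10 active zone genes lie left of 0 wherever AKP is compared, with no correction for length and GC content.

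Other genes of the release pathway were read from 3 lists that hold none of the 37. Of 31 vesicle and SNARE genes, 0 passed in any comparison, with a median log2 fold change of -0.08 in AKP against Ptch, 0.07 in NKP against Ptch and -0.14 in AKP against NKP. An unadjusted p under 0.05 was reached by 6 of them (19.4%) in AKP against Ptch, 2 (6.45%) in NKP against Ptch and 9 (29.0%) in AKP against NKP, as against 25.1%, 17.0% and 16.9% of all tested genes. DESeq2 was not counted for these lists. Of 23 active zone, adhesion and calcium channel genes, 1 rose and 1 fell in AKP against Ptch, with a median of -0.22. Of all tested genes, 3.38% rose and 2.30% fell in that comparison, so so few calls are no result about these lists. An unadjusted p under 0.05 was reached there by 11 of 23 (47.8%), in NKP against Ptch by 3 (13.0%) and in AKP against NKP by 9 (39.1%). Lin7b, an adaptor gene of the Cask complex, rose and was at 11.8, 18.3 and 13.0 CPM in AKP 1 to 3 and 7.16, 9.51, 8.09 and 6.91 CPM in Ptch 1 to 4 (log2 fold change of 0.85 with SE 0.197 and adjusted p = 0.0319). Cacna1e, the pore subunit gene of R-type calcium channels, fell and was at 93.0, 72.0 and 86.3 CPM in AKP and 109, 123, 104 and 116 CPM in Ptch (log2 fold change of -0.43 with SE 0.118 and adjusted p = 0.0484). Of 23 vesicle endocytosis genes, 1 rose in AKP against Ptch, the clathrin light chain gene Clta, at 288, 329 and 297 CPM in AKP and 227, 228, 226 and 233 CPM in Ptch (log2 fold change of 0.42 with SE 0.092 and adjusted p = 0.0279). For these 3 genes the AKP and Ptch libraries did not overlap. Without AKP 2, AKP 3, Ptch 1 or Ptch 2, however, the whole table gave at most 1 call in AKP against Ptch. Their longest annotated transcripts differ widely, at 735 bases for Lin7b, 1710 for Clta and 14921 for Cacna1e. After correction for length and GC content 14 of 14930 genes of the table passed in AKP against Ptch. The 3 lists were not read in that fit. Of the endocytosis list, 6 genes (26.1%) had an unadjusted p under 0.05 in AKP against Ptch, 2 (8.70%) in NKP against Ptch and 3 (13.0%) in AKP against NKP. In NKP against Ptch and in AKP against NKP, 0 genes of the 3 lists passed edgeR's test.

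Markers of the neurons that carry these synapses varied more than the presynaptic sum. Purkinje cell genes summed to 7541, 4175 and 4836 CPM in AKP 1 to 3, 7452, 7551 and 6014 in NKP 1 to 3, against 4939, 4887, 6500.2 and 5857 in Ptch 1 to 4. Inhibitory interneuron genes summed to 2723, 2104 and 1971 CPM in AKP 1 to 3, 2694, 2378 and 2027 in NKP 1 to 3, against 1516, 1509.8, 1989.7 and 1909 in Ptch 1 to 4. Gabra6, a receptor subunit of mature granule neurons, was at 539, 184 and 309.9 CPM in AKP 1 to 3, 467, 529 and 406 in NKP 1 to 3, against 221, 234, 453 and 440.0 in Ptch 1 to 4. Oligodendrocyte genes summed to 10976, 8803 and 8762 CPM in AKP 1 to 3, 12171, 8741 and 7562 CPM in NKP 1 to 3 and 5979, 5996, 7361 and 7063 CPM in Ptch 1 to 4. All AKP and NKP libraries lay above the Ptch libraries. The same held for endothelial genes, which summed to 226, 193 and 187 CPM in AKP, 224, 224 and 188 CPM in NKP and 128, 133, 174 and 168 CPM in Ptch. Microglia genes summed to 106, 173 and 157 CPM in AKP, 106, 107 and 112 CPM in NKP and 152, 144, 129 and 128 CPM in Ptch, with all NKP libraries below all Ptch libraries and the AKP libraries on both sides. Granule and Purkinje cell sums were lowest in AKP 2, the library with the lowest level of 13 of the 37 presynaptic genes.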

How the data were processed

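Per the labels' protocols, poly-A RNA of 10 mouse libraries was prepared with TruSeq RNA v2, which keeps no strand. Per the submitters' processing notes, Trim Galore, STAR and RSEM were used on GRCm38, without versions; their annotation is not given in the sources used here. Each gene symbol has 1 value a library in the deposited table. These deposited values were read as the expected counts made by the authors with RSEM, which the submitters' processing notes name, and all are whole, so rounding changed none. Totals were 12300430 to 19348991 counts. RSEM divides reads between similar genes by estimation.

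Genes were kept with filterByExpr (15617 of 39769), scaled by TMM and tested in edgeR 4.0.16 (R 4.3.3) in 1 fit of all 10 libraries with 3 groups, checked on simulated counts. SE is the log2 fold change divided by the square root of F. Transcript lengths and GC content came from GENCODE vM21, coordinates and promoters (29 of 37 genes) from RefSeq. Fold changes with tests are given for genes that passed and for the gene with the lowest p of the rest in each of 7 role groups. Other genes are given as levels, apart from Stx1a in NKP against Ptch. Alternatives were RLE and upper quartile scaling, DESeq2 1.42.0, other filters, 2-group fits, age or sex label, the replicate number, length and GC offsets (lowess span 0.3), and libraries left out. The genes and lists were chosen with earlier results of these data known.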

Additional observations from a re-analysis of the deposited data

Results flagged for a closer look

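In the 4 Ptch libraries, the level of 1 library lay far from the other 3 for 2 of 37 genes by Dixon's test, where chance alone flags about 1 in 20. Syn2 in Ptch 3 was at 258.2 CPM, against 274 to 276 CPM in the other Ptch libraries. Unc13a in Ptch 4 was at 93.1 CPM, against 103 to 105 CPM in the others. Groups of 3 libraries were not tested in this way.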

How the results depend on the processing

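The count of genes called in AKP against Ptch, 3 of 37, beside 887 of 15617 genes in the whole table, was 7 beside 1940 with DESeq2, 1 (Vamp1) beside 231 with sex label as a covariate, and 1 (Vamp1) beside 14 after correction for length and GC content. It was 0 beside 0 with the replicate block and 0 beside 0 without the 4 libraries against their sex label. In 2 alternatives chosen after seeing the data it was 0 beside 0 without Ptch 1 and Ptch 2 and 0 beside 1 without AKP 2 and AKP 3. Wherever the count fell to 1 or 0, the calls of the whole table fell too. After correction for length and GC content, fold changes moved as well. Bsn went from -0.49 to -0.07 and the median of the 10 active zone genes from -0.24 to -0.01, while Vamp1 went from 0.54 to 0.70. The median of all 37 genes went from -0.14 to 0.03. Leaving out 1 library at a time gave 0 to 8: 0 without AKP 2, AKP 3, Ptch 1 or Ptch 2, 1 without Ptch 3 or Ptch 4 and 8 (21.6%) without AKP 1. The whole table gave 1, 0, 1 and 1 calls without AKP 2, AKP 3, Ptch 1 and Ptch 2, 321 and 183 without Ptch 3 and Ptch 4, and 1459 (9.08%) without AKP 1. In NKP against Ptch, 0 of 37 became 1 with DESeq2 (406 in the whole table) and 5 with age as a covariate (933 in the whole table), and stayed 0 with each library left out. In AKP against NKP, 0 of 37 became 2 with DESeq2 (230 in the whole table), and 0 to 12 with 1 library left out (12 without AKP 1, beside 1364 of 16061). Where a fit leaves a group with 1 library, that library is assumed to vary like the others. Nrxn2 in AKP against Ptch was -0.22, but 0.038 after the length and GC correction (adjusted p = 0.892) and 0.041 without AKP 2 and AKP 3 (0.901); the cause was not tested. All other fold changes of the 37 genes given with a test kept their sign in every alternative that gave a value. Stx1a in NKP against Ptch was not included in this check. Replicate numbers share nothing in the labels, and deviations of same-numbered libraries correlated at -0.34 to 0.34, so the replicate block is no paired analysis. Low levels of Sv2c, Cplx3, Unc13b and Stx1a limit what can be seen in them.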
